A study of Mus musculus with 6 samples.

Results

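The genes of the collagens and of the structural matrix around them were followed in tumor-associated macrophages (TAMs). Their members were taken by symbol from the count table: every collagen chain gene of the form Col, number, a, number, together with Sparc, Fbn1, Dcn, Lum, Bgn, Postn, Tnc, Nid1, Lamb1, Lamc1, Fermt2, Sdpr and Serpinh1. This gave 57 members, 44 collagen genes and 13 others, out of 39179 genes in the table. Flow cytometry was used to isolate TAMs from subcutaneous grafts of a Braf V600E-driven mouse melanoma line in C57BL/6 hosts 8 weeks old. The tumor cells were wildtype for Ptgs1 and Ptgs2 in 3 libraries (Ptgs-competent) or lacked both genes after CRISPR/Cas9 editing in the other 3 (Ptgs-deficient). Their products, COX-1 and COX-2, are the cyclooxygenases that start prostaglandin synthesis. All tumor cells of both groups shared the Braf mutation and the loss of p16INK4a of the parental line, and no host gene was edited, so the sorted macrophages were of host genotype throughout. Per the study's methods, the gate took live CD45+ CD11b+ F4/80+ cells without NK1.1 or Ly6G and with no or dim Ly6C. Each library was a pool of tumors, so differences between single animals were not measured. Libraries read the 3′ end of polyadenylated transcripts (QuantSeq), so a count is a number of reads and is not proportional to transcript length.

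Collagens are secreted proteins whose chains wind into triple helices. Fibrillar types such as I and III form the load-bearing fibers of connective tissue, type IV forms the sheet of basement membranes together with laminins and nidogens, and other types link fibers to each other or to cells. Proteoglycans such as decorin and biglycan and matricellular proteins such as SPARC and tenascin-C bind these fibers and regulate their assembly. Fibroblasts, pericytes and endothelial cells are the usual producers, many melanoma lines also make matrix proteins, and macrophages are better known for taking up and degrading collagen. Serpinh1, Fermt2 and Sdpr encode proteins of the producing or attached cell: a collagen chaperone, an integrin activator and a coat protein of caveolae, respectively.

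The libraries held between 4431184 and 8760679 counts, and Ptgs-competent replicate 3 was the shallowest. The labelled cell type was checked against 14 macrophage genes, and each of them had more than 3 counts in every library. Their summed level was 20772, 21129 and 8206 CPM (counts scaled to library size by the TMM method) from Ptgs-competent tumors and 26836, 27239 and 32210 CPM from Ptgs-deficient tumors. Ptgs-competent replicate 3 therefore stood apart, with 1070 counts of Csf1r and 123 of Cd68, against at least 6010 and 2465 counts in every other library. Nothing in the labels says whether the libraries came from separate experiments, so p-values measure the spread between these libraries.

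Matrix transcripts were a small and uneven part of the TAM libraries, and more of it was read from the Ptgs-competent group. Of the 57 members, 30 had a count in some library and 27 were at 0 in all 6. The members summed to 3506, 7219 and 10456 counts from Ptgs-competent tumors, which was 0.0530%, 0.118% and 0.236% of all counts. In the Ptgs-deficient libraries they summed to 861, 984 and 662 counts, or 0.0164%, 0.0112% and 0.0129%. The lowest Ptgs-competent sum was thus above the highest Ptgs-deficient sum. On the TMM-scaled level, the sum was 559, 1185 and 2254 CPM against 157, 117 and 137 CPM, and the means were 1332 ± 857 and 137 ± 20.0 CPM (SD, n = 3 each). The ratio of the means was 9.72-fold, or -3.28 on the log2 scale. It was 6.11-fold without Ptgs-competent replicate 3. The collagens alone gave 10.1-fold, and leaving out Sparc, the member with the most counts, gave 9.25-fold. In bulk libraries, fewer cells of a type and less RNA per cell cannot be told apart.

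**Figure D1:**
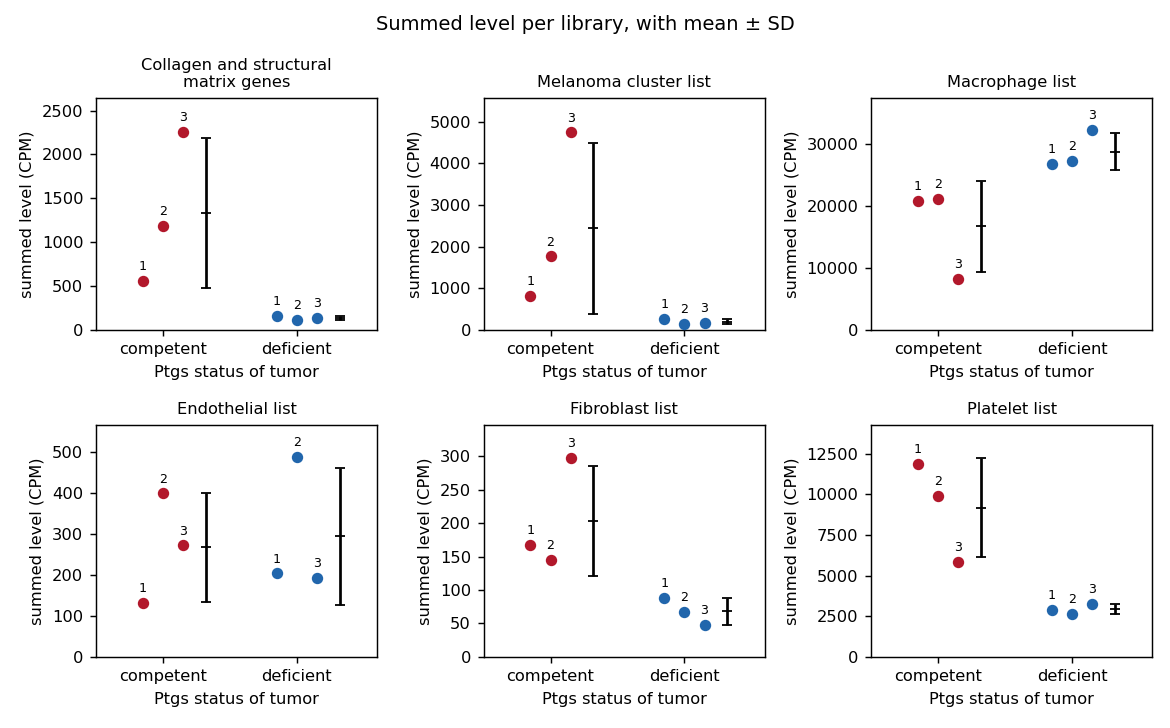
Summed TMM-scaled level in CPM (vertical axes, linear, starting at 0) of the collagen and structural matrix genes and of 5 cell type lists in each library, with points numbered by replicate and the mean ± SD (n = 3) beside them. The matrix sum lay between 559 and 2254 CPM from Ptgs-competent tumors and between 117 and 157 CPM from Ptgs-deficient tumors, and the melanoma cluster list was highest in the same library.

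Genes were compared with the edgeR quasi-likelihood test, with p-values adjusted by Benjamini-Hochberg over the 8793 genes that passed a filter on low counts. The threshold for a call was an adjusted p of at most 0.05 with a log2 fold change of at least 1.5 in size. A negative fold change means a lower level when the tumor was Ptgs-deficient. Only 18 members, 9 collagens and 9 others, passed the filter. None was called lower and none higher, while 0.0569% of all genes tested were called lower and 0.159% higher. At an unadjusted p below 0.05, 8 of the 18 were lower, against 3.82% of all genes tested. None was higher at that p, against 5% of all genes. The values of the groups did not overlap for 10 of the 18, all lower from Ptgs-deficient tumors, against 8.01% of all genes tested. No member was separated in the other direction, against 11% of all genes. A member could pass the filter through the group in which it was high, so the 18 are not a sample of all members. All 18 had a negative fitted fold change, with a median of -3.42 on the log2 scale, while the median of all genes tested was 0.018. That median was the same when the 4 genes at 3 counts or fewer in every Ptgs-deficient library were set to a bound. The bound was computed at 3 counts in each of those libraries. This step could not have moved the median, since the bounds, from -7.53 to -5.07, also lay below it.

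Detection followed the same split. More than 3 counts were found for 21, 21 and 19 members from Ptgs-competent tumors and for 6, 12 and 11 from Ptgs-deficient tumors. Sparc, Col1a2 and Serpinh1 exceeded 3 counts in all 6 libraries, whereas Fermt2, Sdpr, Col8a1 and Col7a1 did so in every Ptgs-competent library and in no Ptgs-deficient one. Counts were close to all-or-none. Of the 342 values of the 57 members, 238 were 0, 14 lay between 1 and 3, none between 4 and 10, 14 between 11 and 50, and 76 above 50. Among all genes tested, which had all passed the filter, 12.6% of values were 0 and 1.63% lay between 4 and 10. Most of the 57 members did not pass it, so the shares are not of like sets. The class between 4 and 10 was small in both. Of the 14 values between 1 and 3, 9 were in Ptgs-deficient replicate 2, the deepest library. The kit as described carries no molecular identifiers, so reads copied from the same molecule could not be merged.

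**Figure D2:**
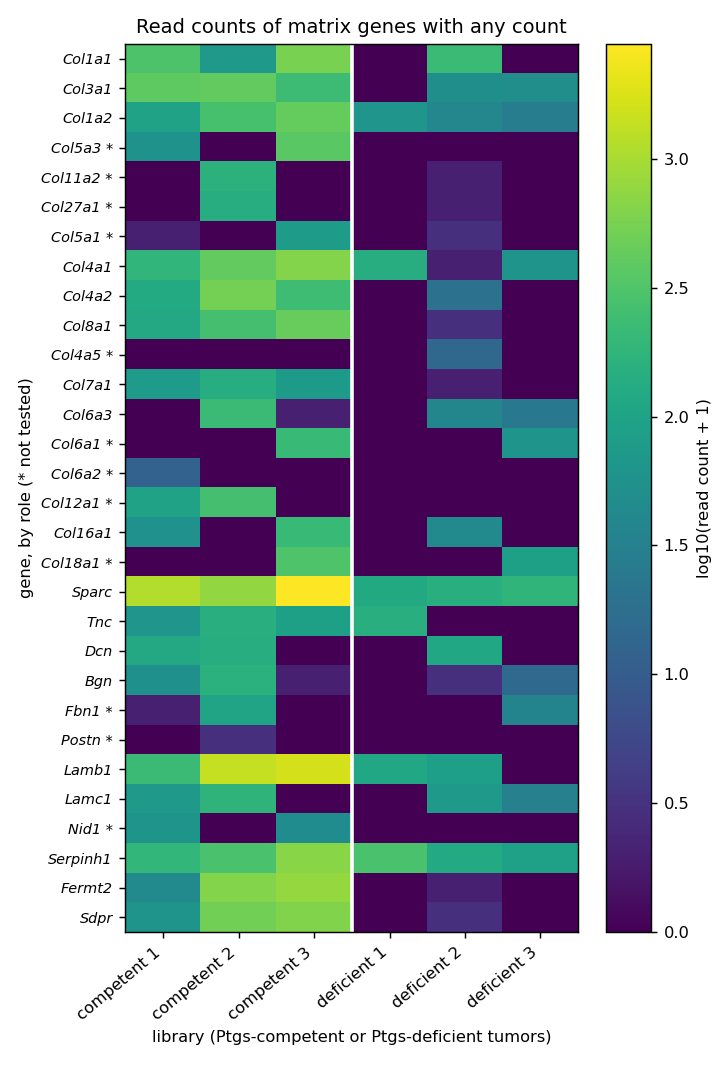
Read counts of the 30 members with any count, as log10(read count + 1) on a color scale, with genes as rows ordered by role and the 6 libraries as columns. Dark cells are counts of 0; the left columns hold the Ptgs-competent libraries, in which 19 to 21 members exceeded 3 counts, and asterisks mark genes that did not pass the filter for testing.

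The promoter windows of 6 members are shown because the likelihood ratio test named further on called 4 of them, Sparc, Col8a1, Fermt2 and Sdpr (now Cavin2), and because the other two, Col4a1 and Col4a2, are transcribed away from each other from neighboring starts. Each window runs 5′ to 3′ on the gene's strand from 250 bases before to 50 bases after the start, from RefSeq on GRCm38.p6. Capitals mark the letters GGGCGG or CCAAT on either strand (CCGCCC or ATTGG when read from the other strand).
Sparc, chr11:55420031-55420330, minus strand: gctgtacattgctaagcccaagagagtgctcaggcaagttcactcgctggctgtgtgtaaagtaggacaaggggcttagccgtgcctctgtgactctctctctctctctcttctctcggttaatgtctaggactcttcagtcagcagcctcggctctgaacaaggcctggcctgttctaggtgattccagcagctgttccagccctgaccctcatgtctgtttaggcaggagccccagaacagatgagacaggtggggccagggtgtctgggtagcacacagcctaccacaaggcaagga
Col8a1, chr16:57754688-57754987, minus strand: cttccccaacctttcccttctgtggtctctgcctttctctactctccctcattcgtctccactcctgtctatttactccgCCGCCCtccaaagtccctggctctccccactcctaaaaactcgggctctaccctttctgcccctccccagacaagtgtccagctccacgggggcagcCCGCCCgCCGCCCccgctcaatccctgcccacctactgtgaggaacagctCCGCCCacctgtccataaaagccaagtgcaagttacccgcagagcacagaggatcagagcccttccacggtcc
Fermt2, chr14:45530016-45530315, minus strand: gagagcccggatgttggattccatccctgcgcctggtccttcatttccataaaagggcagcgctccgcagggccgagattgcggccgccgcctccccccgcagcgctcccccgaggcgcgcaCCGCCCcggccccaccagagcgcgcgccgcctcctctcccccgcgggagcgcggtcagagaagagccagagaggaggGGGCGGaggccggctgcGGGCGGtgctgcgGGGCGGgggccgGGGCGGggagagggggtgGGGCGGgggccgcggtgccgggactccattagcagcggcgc
Sdpr, chr1:51288876-51289175, plus strand: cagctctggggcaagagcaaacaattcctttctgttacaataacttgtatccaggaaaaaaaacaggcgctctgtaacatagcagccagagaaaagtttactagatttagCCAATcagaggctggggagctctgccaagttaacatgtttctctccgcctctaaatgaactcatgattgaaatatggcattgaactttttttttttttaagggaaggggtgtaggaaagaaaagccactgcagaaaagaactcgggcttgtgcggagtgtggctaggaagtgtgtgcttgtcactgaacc
Col4a1, chr8:11312777-11313076, minus strand: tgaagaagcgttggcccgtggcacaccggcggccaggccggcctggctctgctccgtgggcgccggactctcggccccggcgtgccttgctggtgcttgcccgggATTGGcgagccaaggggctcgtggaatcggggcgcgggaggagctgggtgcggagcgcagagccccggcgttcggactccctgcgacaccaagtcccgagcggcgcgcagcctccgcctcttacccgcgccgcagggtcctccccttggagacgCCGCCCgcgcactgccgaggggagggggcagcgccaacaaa
Col4a2, chr8:11312555-11312854, plus strand: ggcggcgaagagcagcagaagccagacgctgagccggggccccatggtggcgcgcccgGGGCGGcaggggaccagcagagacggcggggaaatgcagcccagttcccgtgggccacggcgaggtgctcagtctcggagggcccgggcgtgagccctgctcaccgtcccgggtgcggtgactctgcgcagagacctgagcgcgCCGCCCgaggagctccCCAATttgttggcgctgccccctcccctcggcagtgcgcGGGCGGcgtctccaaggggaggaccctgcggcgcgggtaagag

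The Col4a1 and Col4a2 windows shared 78 bases, chr8:11312777-11312854, and the starts lay 21 bases apart. GGGCGG, the letters of a GC box, occurred 6 times in the Fermt2 window, 4 times in Col8a1, 3 times in Col4a2 and 1 time in Col4a1, and was not found in the Sparc or Sdpr windows. CCAAT occurred 1 time each in the Sdpr, Col4a1 and Col4a2 windows. Over both strands, GGGCGG was present in 12 of the 16 windows of tested members and in 35.7% of all 32851 promoter windows. CCAAT was present in 7 of the 16 and in 37.4% of all windows. TATAAA was present in 3 of the 16 against 13.6%, and GGAATG, the core letters of TEAD sites, in 1 of the 16 against 14.7%. TGANTCA, the letters of AP-1 sites, was in none of the 16 against 7.81% of all windows. None of these last 3 was found in the 6 windows shown. Fermt2 and Sdpr had windows of different base composition, with 76.7% and 43.3% G or C. These matches are descriptions of the letters and not evidence of binding.

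The fibrillar collagens were led by the chains of types I and III. Col3a1 (ENSMUSG00000026043; chromosome 1, 45311538 to 45349706), the single chain of type III collagen, had 383, 408 and 228 counts from Ptgs-competent tumors and 0, 51 and 50 from Ptgs-deficient tumors. The groups did not overlap and the level was even among the Ptgs-competent libraries, at 59.1 ± 9.07 CPM against 5.47 ± 5.20 CPM (SD, n = 3 each). The fitted log2 fold change was -3.43 (SE 1.598, edgeR adjusted p 0.609), with -4.25 without Ptgs-deficient replicate 3 and -2.82 without Ptgs-deficient replicate 1. Col1a2 (chromosome 6, 4504814 to 4541544), a chain of type I collagen, had 96, 280 and 432 counts against 61, 38 and 27, again without overlap on the scaled level. Its log2 fold change was -2.86 ± 1.28 (SE, edgeR adjusted p 0.563), and -2.05 without Ptgs-competent replicate 3. Its partner chain Col1a1 (chromosome 11, 94936224 to 94953042) had 305, 71 and 572 counts against 0, 224 and 0. Here a single Ptgs-deficient library, replicate 2, was above the lowest Ptgs-competent one, and the log2 fold change was -2.77 ± 2.06 (SE, edgeR adjusted p 0.962). It was -1.71 without Ptgs-competent replicate 3. The chains of type I thus did not keep a common ratio across libraries: Ptgs-deficient replicate 2 held 224 counts of Col1a1 and 38 of Col1a2, and replicates 1 and 3 held Col1a2 without Col1a1.

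The minor fibrillar chains appeared in 1 or 2 of the Ptgs-competent libraries. Col5a3, a chain of the type V collagen that regulates fiber diameter, had 57, 0 and 361 counts from Ptgs-competent tumors and 0 in all Ptgs-deficient libraries. A floor of 3 counts in each Ptgs-deficient library put it at least 57.0-fold lower, and leaving out Ptgs-competent replicate 3 at least 8.93-fold lower. Col5a1 had 80 counts in Ptgs-competent replicate 3 and no more than 2 elsewhere. Col11a2 and Col27a1, chains better known from cartilage, had 162 and 138 counts in Ptgs-competent replicate 2 and no more than 1 elsewhere. None of these genes passed the filter for testing, and each of the last 3 rests on a single library.

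The chains of basement membranes and other networks formed the next group. Col4a1 (chromosome 8, 11198423 to 11312826) had 183, 417 and 638 counts from Ptgs-competent tumors and 137, 1 and 60 from Ptgs-deficient tumors. Its partner Col4a2 (chromosome 8, 11312805 to 11449287), which joins it in the same type IV trimer, had 125, 531 and 235 counts against 0, 18 and 0. Neither overlapped between groups on the scaled level. The log2 fold change was -2.65 ± 1.40 for Col4a1 (SE, edgeR adjusted p 0.743) and -6.11 ± 2.09 for Col4a2 (SE, edgeR adjusted p 0.366). Col4a1 was fitted at -3.64 without Ptgs-deficient replicate 1 and at -1.91 without Ptgs-competent replicate 3. Col4a2 was fitted at -5.49 without Ptgs-deficient replicate 1 and at -11.2 without Ptgs-deficient replicate 2, where no Ptgs-deficient read was left and the size depends on the prior count. Although the genes share a promoter region, their counts were not proportional: Ptgs-deficient replicate 1 held 137 counts of Col4a1 and 0 of Col4a2, and replicate 2 held 1 and 18. The difference between these fold changes was not tested. Col4a5, of a separate type IV network, was the only member whose counts exceeded 3 in the Ptgs-deficient group alone, with 13 counts in replicate 2.

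Col8a1 (chromosome 16, 57624258 to 57754737), a short-chain network collagen of vessel walls and the cornea, separated the groups further. It had 120, 271 and 437 counts from Ptgs-competent tumors and 0, 2 and 0 from Ptgs-deficient tumors. With 2 counts in the whole Ptgs-deficient group, the ratio of summed counts per scaled total was 455-fold. Its exact 95% interval for counting error, with reads taken as independent, ran from 126 to 3767. Without Ptgs-competent replicate 3 the ratio was 296-fold. The edgeR adjusted p was 0.136. Col7a1 (chromosome 9, 108953586 to 108984875), which forms the anchoring fibrils below epithelia, had 76, 139 and 75 counts against 0, 1 and 0. Its ratio was 319-fold with an interval from 56.8 to 12645, and the edgeR adjusted p was 0.376. Both genes were present in every Ptgs-competent library and at 0 in the same 2 of 3 Ptgs-deficient libraries.

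Among the basement membrane glycoproteins, Lamb1 (chromosome 12, 31265234 to 31329644), the beta 1 chain of laminin, had 219, 1393 and 1648 counts from Ptgs-competent tumors and 116, 87 and 0 from Ptgs-deficient tumors. Its level was 206 ± 161 CPM against 10.5 ± 10.6 CPM (SD, n = 3 each) and the groups did not overlap. The log2 fold change was -4.29 ± 1.36 (SE, edgeR adjusted p 0.2998). Without Ptgs-competent replicate 3 the mean of that group was 132 CPM and the log2 fold change -3.57. Lamc1 (chromosome 1, 153218922 to 153332786), the gamma 1 chain that pairs with it, had 69, 171 and 0 counts against 0, 69 and 31. The groups overlapped for Lamc1, at a log2 fold change of -1.41 ± 2.67 (SE, edgeR adjusted p 0.9995) that was -0.17 without Ptgs-competent replicate 2. Ptgs-competent replicate 3 thus held the most Lamb1 of all libraries and no count of Lamc1. Nid1, the linker between laminin and type IV collagen, had 60, 0 and 46 counts against 0 in all Ptgs-deficient libraries, which at that floor was at least 12.8-fold lower. Col18a1, the source of endostatin, had 314 counts in Ptgs-competent replicate 3, 91 in Ptgs-deficient replicate 3 and 0 elsewhere. Neither Nid1 nor Col18a1 was tested.

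Type VI collagen, which forms beaded filaments near cells, was read from different chains in different libraries. Col6a3 (chromosome 1, 90765923 to 90843971) had 0, 219 and 1 counts from Ptgs-competent tumors and 0, 37 and 24 from Ptgs-deficient tumors. Its log2 fold change of -1.94 ± 2.92 (SE, edgeR adjusted p 0.9995) rested on Ptgs-competent replicate 2 and was 4.65 without it. Col6a1 had 207 counts in Ptgs-competent replicate 3 and 60 in Ptgs-deficient replicate 3, and Col6a2 had 11 counts in Ptgs-competent replicate 1. No library held more than 3 counts of all 3 chains.

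Of the collagens that sit on fiber surfaces, Col16a1 (chromosome 4, 130047840 to 130099283) had 55, 0 and 212 counts from Ptgs-competent tumors against 0, 42 and 0. The groups overlapped, with a log2 fold change of -3.42 ± 3.07 (SE, edgeR adjusted p 0.9995) that was -1.34 without Ptgs-competent replicate 3. Col12a1 had 95, 269 and 0 counts against 0 in all Ptgs-deficient libraries. The difference was at least 38.9-fold, at least 14.9-fold when Ptgs-competent replicate 2 was left out, and it was not tested. The other 7 of the 9 collagens of this class were at 0, as were 6 of the 7 membrane-bound and related collagens.

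Sparc (ENSMUSG00000018593; chromosome 11, 55394500 to 55423183) encodes a collagen-binding matricellular protein and supplied the most counts of all members. It had 1128, 765 and 2785 counts from Ptgs-competent tumors and 124, 148 and 178 from Ptgs-deficient tumors. Every Ptgs-competent library was above every Ptgs-deficient one, at 302 ± 259.9 CPM against 25.7 ± 9.97 CPM (SD, n = 3 each). Without replicate 3 the Ptgs-competent mean was 153 CPM and the log2 fold change -2.53 (edgeR adjusted p 0.170). The log2 fold change was -3.56 ± 0.66, the smallest standard error of the 18 tested members, with an edgeR adjusted p of 0.0762. Sparc was also the only member of its class without overlap between the groups.

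Tnc (chromosome 4, 63959785 to 64047015), encoding tenascin-C of remodeling tissue, had 62, 149 and 89 counts from Ptgs-competent tumors and 142, 0 and 0 from Ptgs-deficient tumors. The Ptgs-deficient reads came from replicate 1 alone, at the highest scaled level of any library. Its log2 fold change was -1.05 ± 2.53 (SE, edgeR adjusted p 0.9995). Dcn (chromosome 10, 97479609 to 97518143), the fibroblast proteoglycan decorin, had 118, 140 and 0 counts against 0, 117 and 0. Bgn (chromosome X, 73483602 to 73495933), the related biglycan, had 53, 156 and 1 counts against 0, 2 and 14. Both overlapped between groups, with edgeR adjusted p-values of 0.9995 and 0.995. Ptgs-competent replicate 3, which held the largest matrix sum, thus had 0 and 1 counts of these proteoglycans. Fbn1, the microfibril component fibrillin-1, had 1, 103 and 0 counts against 0, 0 and 35, Postn had 2 counts in all, and Lum had none. The fitted log2 fold changes were -1.58 ± 2.92 for Dcn and -3.43 ± 2.76 for Bgn (SE).

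The members of the cell itself included the most separated genes. Fermt2 (ENSMUSG00000037712; chromosome 14, 45458795 to 45530118), which encodes kindlin-2, the integrin activator of adherent non-blood cells, had 42, 639 and 786 counts from Ptgs-competent tumors and 0, 1 and 0 from Ptgs-deficient tumors. Sdpr (ENSMUSG00000045954; chromosome 1, 51289126 to 51302960), which encodes the caveolar protein cavin-2, had 59, 508 and 624 counts against 0, 2 and 0. The Ptgs-competent libraries stood in the same order for both, with replicate 1 far below replicates 2 and 3. That order was also the order of the matrix sum and of other members, such as Col8a1 and Lamb1. Against the 1 count of Fermt2 in the Ptgs-deficient group the ratio was 1614-fold. Its exact 95% interval for counting error, with reads taken as independent, ran from 289 to 63794. For Sdpr the ratio was 655-fold with an interval from 181 to 5416. Without Ptgs-competent replicate 3 these ratios were 1030-fold and 429-fold, and without replicate 1 they were 2484-fold and 987-fold. The edgeR adjusted p was 0.0600 for Fermt2 and 0.0821 for Sdpr, so neither was called.

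Serpinh1 (chromosome 7, 99345376 to 99353239), the endoplasmic reticulum chaperone HSP47 of procollagen, overlapped between the groups. It had 188, 288 and 685 counts from Ptgs-competent tumors and 281, 127 and 92 from Ptgs-deficient tumors. The level was 74.96 ± 63.5 CPM against 28.5 ± 19.8 CPM (SD, n = 3 each). Its fitted log2 fold change was -1.40 ± 0.91 (SE, edgeR adjusted p 0.904). Without Ptgs-competent replicate 3 the mean of that group was 38.6 CPM and the log2 fold change -0.38. Ptgs-deficient replicate 1, with the most Serpinh1 of its group, had 61 counts of Col1a2 and none of Col1a1 or Col3a1.

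**Figure D3:**
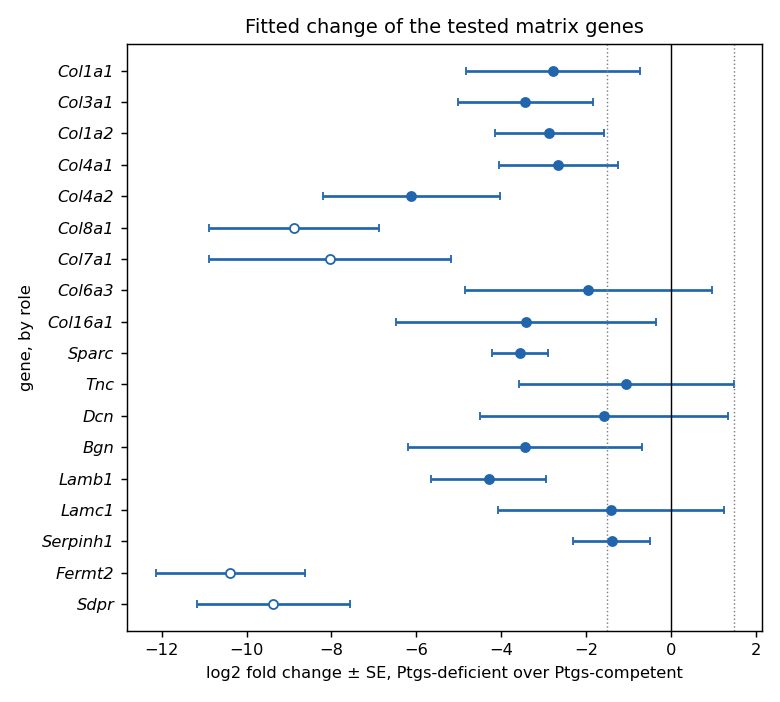
Fitted log2 fold change (horizontal axis, Ptgs-deficient over Ptgs-competent) with its standard error for the 18 tested members, ordered by role, with dotted lines at -1.5 and 1.5. Open points are genes with 3 counts or fewer in every Ptgs-deficient library, whose fitted size depends on the prior count; Sparc, at -3.56, has the shortest error bar.

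The make-up of the matrix reads varied within both groups. Collagens supplied 43.0%, 40.2% and 36.3% of the members' counts from Ptgs-competent tumors and 23.0%, 43.8% and 47.1% from Ptgs-deficient tumors. Sparc alone supplied 32.2%, 10.6% and 26.6% against 14.4%, 15.0% and 26.9%. These are shares of reads, and the ranges of the groups overlapped for both. The fibrillar collagens supplied between 7.08% and 32.2% for Ptgs-deficient tumors and between 14.7% and 24.0% for Ptgs-competent tumors.

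**Figure D4:**
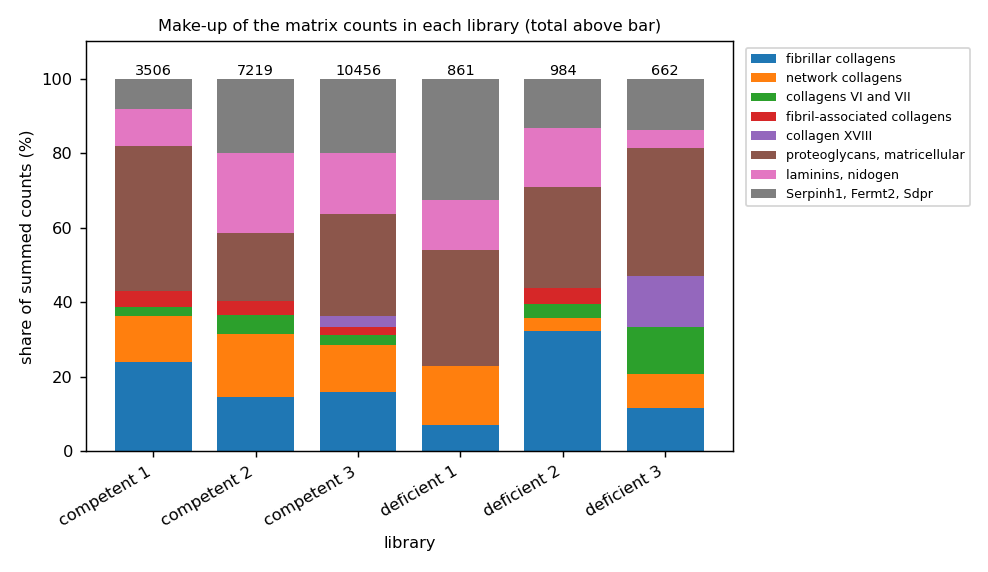
Share of the members' summed counts (vertical axis, percent) that came from each class of matrix gene in each library, with the summed count above each bar. Every class with reads in both groups varied between libraries, and the Ptgs-deficient bars rest on only 662 to 984 counts.

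Genes that make or modify collagen were fitted in both directions and their summed level was nearly equal between the groups. Of 30 such genes, 14 were tested, 7 were fitted higher and 7 lower, and the edgeR quasi-likelihood test called none, with 1 higher and 1 lower at an unadjusted p below 0.05. The median log2 fold change was 0.044 and their summed level was 1535 ± 109 CPM against 1536 ± 148 CPM (SD, n = 3 each). P4hb alone gave 612 and 435 CPM of these means. Of the 14 tested, 4 were lower and 3 higher without overlap, against 8.01% and 11% of all genes tested. Fkbp10, among the lower ones, had 90, 170 and 273 counts against 0, 90 and 0 (edgeR adjusted p 0.957). Plod2, which was not tested, had 11, 324 and 78 counts against 0, 2 and 0. Leprel4, encoding a partner of the collagen prolyl and lysyl modifying enzymes, had 149, 145 and 453 counts from Ptgs-competent tumors and 0, 4 and 0 in the others (edgeR adjusted p 0.208), and it was the only gene of this list that the likelihood ratio test and DESeq2 called lower, at adjusted p-values of 0.0104 and 6.24e-05. Pcolce, which enhances procollagen cleavage outside the cell, had 430, 52 and 475 counts against 0, 52 and 39, with a log2 fold change of -3.65 ± 1.72 (SE, edgeR adjusted p 0.625). It was -2.98 without Ptgs-competent replicate 3 and -4.24 without Ptgs-deficient replicate 3. Ppib, a prolyl isomerase of the secretory pathway in most cells, had 948, 409 and 330 counts against 706, 2103 and 1316 and a log2 fold change of 1.17 ± 0.49 (SE, edgeR adjusted p 0.488). Colgalt1, which adds galactose to collagen chains, had 769, 615 and 610 counts against 1166, 1482 and 864. Its log2 fold change was 0.68 ± 0.37 (SE, edgeR adjusted p 0.781). Of the lysyl oxidases, which cross-link collagen, Loxl3 had 0, 6 and 212 counts against 0, 17 and 0 and Loxl1 had 17 counts in Ptgs-competent replicate 3. Loxl2 had 3 counts in all, and Lox and Loxl4 were at 0.

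Other basement membrane and elastic fiber genes summed to 126, 389 and 575 CPM from Ptgs-competent tumors and 64.6, 34.4 and 67.5 CPM from Ptgs-deficient tumors, without overlap and with a ratio of the means of 6.55-fold. Fbln2, encoding the basement membrane protein fibulin-2 and named after its values were seen, had 0, 697 and 707 counts against 1, 0 and 0 and did not pass the filter, and it was the only gene of the list called lower when no filter was applied. Of 30, 6 were tested, 5 were fitted lower and 1 higher. None was called or reached an unadjusted p below 0.05 by the edgeR quasi-likelihood test, and none was called by the likelihood ratio test or DESeq2. Ltbp1, which stores latent TGF-beta in the matrix, had 93, 340 and 324 counts against 0, 49 and 0 (edgeR adjusted p 0.652). The heparan sulfate proteoglycan genes Agrn and Hspg2 had edgeR adjusted p-values of 0.806 and 0.9204, respectively. Agrn had 103, 241 and 181 counts against 0, 1 and 27, without overlap. Hspg2 had 115, 397 and 756 counts against 177, 0 and 0, and Ptgs-deficient replicate 1 overlapped the Ptgs-competent group. Emilin1, an elastic fiber glycoprotein, was the gene fitted higher, with 20, 0 and 0 counts against 11, 176 and 178 and a log2 fold change of 4.20 ± 2.80 (SE, edgeR adjusted p 0.916), which was 9.88 without Ptgs-competent replicate 1, where no Ptgs-competent read was left.

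Among 26 further matrix proteoglycans and glycoproteins, 7 were tested, 1 was called higher and none lower. Fn1, encoding fibronectin, which macrophages also make, had 1039, 746 and 402 counts from Ptgs-competent tumors and 3955, 5113 and 2919 from Ptgs-deficient tumors. It rose by 2.37 ± 0.36 on the log2 scale (SE, edgeR adjusted p 0.0350), and the groups did not overlap. When each of the 6 libraries was left out in turn, the log2 fold change stayed between 2.21 and 2.63. The call was lost in 5 of these cases, at adjusted p-values between 0.0568 and 0.205, and it was kept by the likelihood ratio test and DESeq2. Tgfbi, a TGF-beta-induced adhesion protein with up to 21654 counts, was fitted at -1.0045 ± 0.45 on the log2 scale (SE, edgeR adjusted p 0.562). Thbs1, encoding thrombospondin-1, had a log2 fold change of -0.99 ± 0.47 (SE, edgeR adjusted p 0.635). Cyr61, a matricellular YAP target, had 1, 279 and 427 counts against 0, 42 and 0 (edgeR adjusted p 0.748).

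Collagen receptors were fitted in both directions. Of 12, 6 were tested, 3 were fitted higher and 3 lower, and the edgeR quasi-likelihood test called none, with 1 higher and 1 lower at an unadjusted p below 0.05. Ddr2, a collagen-binding kinase of mesenchymal cells, had 89, 418 and 399 counts against 0, 2 and 0 (edgeR adjusted p 0.118). It was called lower by the likelihood ratio test, at an adjusted p of 0.00125, and by DESeq2, at 6.89e-06. Mrc1, the mannose receptor by which macrophages take up collagen, had 3215, 3144 and 1102 counts against 4864, 6812 and 3965, with a log2 fold change of 0.99 ± 0.36 (SE, edgeR adjusted p 0.376). Cd44 was fitted at -0.80 ± 0.36 (SE, edgeR adjusted p 0.571). Ddr1 was fitted at -1.95 ± 2.41 (SE, edgeR adjusted p 0.9995), and at 0.018 without Ptgs-competent replicate 3.

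The summed level of tumor cell markers was also lower from Ptgs-deficient tumors. A list of 40 genes that led the melanoma cluster in the study's single-cell data, with members of the matrix set removed, was summed. Per the study's methods, parental melanoma cells, which are Ptgs-competent, had been spiked into those single-cell samples, so the list may describe such cells more than Ptgs-deficient ones. It came to 813, 1766 and 4747 CPM from Ptgs-competent tumors and 256, 143 and 171 CPM from Ptgs-deficient tumors. The order of the Ptgs-competent libraries was that of the matrix sum, and the ratio of matrix to melanoma sums was 0.687, 0.671 and 0.475 against 0.613, 0.818 and 0.801. Of the 40 genes, 20 were tested and all 20 were fitted lower. The edgeR quasi-likelihood test called none, with 11 lower at an unadjusted p below 0.05, against 3.82% of all genes tested. The likelihood ratio test called 7 lower, against 1.19% of all genes tested, with Prkg2, Hmga2, Tm4sf1, Cald1 and Ddr2 among them. DESeq2 called 9 lower, against 1.81% of the genes to which it gave an adjusted p. Of the 40, 21 had no more than 3 counts in any Ptgs-deficient library, and 3 of these were tested. As for the matrix genes, a gene could pass the filter through the group in which it was high, so these counts are descriptions. In the Ptgs-competent libraries 24, 24 and 36 of the 40 exceeded 3 counts, against 8, 12 and 11. Prkg2 had 247, 195 and 473 counts against 0 in every Ptgs-deficient library (edgeR adjusted p 0.0941). Hmga2 had 429, 875 and 2163 counts against 0, 2 and 22 (edgeR adjusted p 0.0967). Tm4sf1 and Cald1 had edgeR adjusted p-values of 0.101 and 0.107. Of the list, Rhobtb3 and Cdsn were at 0 throughout, and 4 genes also stood in the other matrix and receptor lists. The part of tumor cell transcripts in the matrix result was not tested.

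The pigment cell genes gave no such signal. Of 12 melanocyte genes, Pmel, Dct, Tyr, Tyrp1, Mlana, Sox10, S100b, Gpr143, Slc45a2 and Oca2 were at 0 in all 6 libraries. Mitf, which macrophages also express, had 12, 0 and 3 counts from Ptgs-competent tumors against 58, 372 and 88 (log2 fold change 4.80 ± 2.43, SE, edgeR adjusted p 0.703). The fold change lay between 4.04 and 6.18 when each library was left out in turn.

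The fibroblast list was read from 3 to 7 of its genes in each library. Of 14 fibroblast genes, 12 had counts, and they summed to 167, 145 and 297 CPM from Ptgs-competent tumors and 88.7, 67.4 and 48.2 CPM from Ptgs-deficient tumors. The sums did not overlap, with a ratio of the means of 2.99-fold, but Pdpn, also found on other stromal and myeloid cells, had 885, 659 and 146 counts against 83, 399 and 171 (edgeR adjusted p 0.728). Without Pdpn, a sum chosen after the values were seen, the list came to 26.3, 37.3 and 265.8 CPM against 73.5, 19.9 and 12.8 CPM, and Ptgs-deficient replicate 1 overlapped the Ptgs-competent group. The ratio of the means was then 3.10-fold, and 0.897-fold when Ptgs-competent replicate 3 was also left out. Only 3 genes were tested, 2 fitted lower and 1 higher. None was called or reached an unadjusted p below 0.05 by the edgeR quasi-likelihood test, and none was called by the likelihood ratio test or DESeq2. Pdgfrb had 0, 66 and 389 counts against 49, 0 and 0 (edgeR adjusted p 0.9995). Fap and Tcf21 were at 0, Pdgfra had 81 counts in Ptgs-competent replicate 1 and none elsewhere, and Prrx1 had 219 counts in Ptgs-competent replicate 3 and 13 in Ptgs-deficient replicate 2. The 12 pericyte and smooth muscle genes summed to between 0.159 and 63.8 CPM against between 0 and 66.2 CPM, with Cspg4, Tagln, Myh11 and Cnn1 at 0. The 15 endothelial genes summed to 132, 399 and 272 CPM against 204, 488 and 193 CPM. Cdh5, Tek, Tie1, Emcn and Cldn5 were at 0 in all libraries. Plvap, a protein of fenestrated endothelium, had 59, 487 and 421 counts against 0, 1 and 0 (edgeR adjusted p 0.0924). Pecam1, shared with myeloid cells, was fitted at -1.70 ± 0.68 (SE, edgeR adjusted p 0.456). Lyve1, shared with tissue macrophages, was fitted at 3.81 ± 0.75 (SE, edgeR adjusted p 0.0920), and at 2.94 without Ptgs-deficient replicate 2. The likelihood ratio test and DESeq2 called Plvap lower and Lyve1 higher. The part of these cells in the matrix result was not tested.

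The blood cell and keratinocyte lists are given next. The 16 platelet genes summed to 11857, 9879 and 5827 CPM from Ptgs-competent tumors and 2889, 2627 and 3261 CPM from Ptgs-deficient tumors, most of it from Pf4, which macrophages also express. Ppbp, a platelet chemokine also read in myeloid cells, was the only gene of this list that the quasi-likelihood test called, with 6097, 3683 and 1429 counts against 115, 55 and 10. It fell by 5.99 on the log2 scale (SE 0.85, edgeR adjusted p 0.0324), and this call too was lost in 5 of the 6 cases with a library left out, at adjusted p-values between 0.0637 and 0.183 and log2 fold changes between -7.12 and -5.51. The likelihood ratio test and DESeq2 called Pf4 lower as well. Gp9, Gp1ba, Gp5, Treml1 and Tubb1 were at 0. The 12 neutrophil genes summed to between 621 and 724 CPM against between 452 and 532 CPM, the 10 keratinocyte genes to between 10.7 and 60.1 CPM against between 0 and 18.6 CPM, and the 10 NK and T cell genes to 1.51 to 2.13 CPM against 0.414 to 21.4 CPM. Ly6g, Krt5, Krt14 and Cd3e were at 0 in all libraries. None of these 3 lists had a gene called by the edgeR quasi-likelihood test, its likelihood ratio test or DESeq2, and no keratinocyte or NK and T cell gene passed the filter.

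Of the 14 macrophage genes, 12 were fitted higher from Ptgs-deficient tumors and none was called by the quasi-likelihood test of edgeR, its likelihood ratio test or DESeq2, with a median log2 fold change of 0.97. An unadjusted p below 0.05 was reached by 8 of the 14, all higher, against 5% of all genes. The groups did not overlap for 9, all higher, against 11% of all genes. Their sum was lowest in Ptgs-competent replicate 3, in which the matrix and melanoma sums were highest. In the other Ptgs-competent libraries the macrophage sums, 20772 and 21129 CPM, differed by little, while the matrix sums were 559 and 1185 CPM. Without Ptgs-competent replicate 3 the mean matrix sum of that group was 872 CPM on the same scale, still above every Ptgs-deficient library.

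Other count tests drew the line elsewhere. The edgeR likelihood ratio test called 4 members lower, Col8a1, Fermt2, Sdpr and Sparc, against 1.19% of all genes tested. DESeq2 called 7 lower, adding Col4a2, Col7a1 and Lamb1, against 1.81% of the genes to which it gave an adjusted p. Neither called a member higher. Without the low-count filter 5 members were called lower against 0.972% of genes, by limma voom 2 against 0.682%, and with a replicate block 3 against 0.318%. The adjusted p of Sparc was 0.000464 by the likelihood ratio test and 3.71e-05 by DESeq2, against 0.0762 by the quasi-likelihood test.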

How the data were processed

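The authors sequenced 3′ end libraries of sorted TAMs, trimmed the reads with BBDUK, fqtrim and cutadapt, aligned them to GRCm38 with STAR and counted them with featureCounts on an Ensembl annotation of that assembly. Tool versions, strand setting and the treatment of multiply aligned reads were not given in the sources used here, so reads of genes that overlap or have near-identical copies could be shared or lost. The deposited unit is the raw read count per gene, without normalization. Each library was a pool of tumors.

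Members and gene lists were chosen with earlier results of these data known, and nothing here is independent support for those results. The authors used a generalized linear model test of edgeR with an adjusted p of 0.05 and a log2 fold change of 1.5. Here all genes were filtered with filterByExpr (minimum count 10, minimum total 15), scaled by TMM and fitted with the quasi-likelihood test in edgeR 4.0.16 (R 4.3.3), two-sided. The standard error is the log2 fold change over the square root of F. Alternatives used DESeq2 1.42.0, limma 3.58.1, other scalings, no filter, a replicate block and each library left out. The tests were first run on simulated counts. All tested members are named with counts. Untested members are named if they reach 10 counts, and up to 4 genes per other list by smallest p. Other genes named beside the lists were chosen after their values were seen. Ratios against 1 to 3 counts carry an exact (Clopper-Pearson) 95% interval, and groups at 0 were set to 3 counts in each library (0.357 to 0.621 CPM on the TMM scale in the Ptgs-deficient libraries). Both cover counting error only. The intervals take each read as independent, although reads copied from the same molecule were not merged, so they may be too narrow. Gene positions are from GENCODE M21 on GRCm38. Promoter windows were found in RefSeq for 45 of the 57 members.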

Additional observations from a re-analysis of the deposited data

How the results depend on the processing

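The count of members called lower, 0 in the main analysis, was 5 without the low-count filter, 4 by the edgeR likelihood ratio test, 7 by DESeq2, 2 by limma voom with quality weights and 3 with a replicate block. Over all genes these settings called 130, 105, 155, 60 and 28 lower. The block called Fermt2, Sdpr and Sparc. Nothing in the labels pairs the libraries by replicate number. Deviations of libraries with the same number correlated at -0.042, -0.017 and -0.025, and those with different numbers at -0.013 to 0.043. With 3 libraries per group these values cannot exclude a pairing. The count stayed at 0 with other scalings and whenever a library was left out, where at most 5 genes in all were called lower, and no member was called higher under any alternative run. The 13 alternatives refit the same 18 tested members on the same or overlapping libraries, so their signs are not separate support. These genes could pass the filter through the group in which they were high. Over the 13 alternatives, 231 of the 234 fold changes were negative. The exceptions were all Col6a3, at 1.83 under voom, 0.34 with the block and 4.65 without Ptgs-competent replicate 2, and the cause was not tested. Leaving out each library put Col6a3 between -2.52 and 4.65 and Ddr1 between -10.3 and 0.018. It put Tnc between -9.73 and -0.46, Col1a1 between -11.4 and -1.71, Col16a1 between -9.63 and -1.34 and Dcn between -9.25 and -0.94. The lowest of these 4 come from fits in which no Ptgs-deficient read was left, so their size depends on the prior count. Lamc1 lay between -2.02 and -0.17 and Bgn between -6.31 and -2.04. Among genes outside the members, Emilin1 lay between 3.41 and 9.88, Hspg2 between -11.9 and -1.89, Ltbp1 between -11.0 and -3.92, Agrn between -8.54 and -3.46, Cyr61 between -11.0 and -3.68, Tgfbi between -1.33 and -0.44 and Cd44 between -0.98 and -0.41. The extremes of Emilin1, Hspg2, Ltbp1 and Cyr61 farthest from 0 likewise come from fits with a group at 0 reads. Ddr1 turned positive without Ptgs-competent replicate 3. Under voom and the block the median of all genes lay at 0.39 and 0.26. The log2 ratio of summed levels ranged from -3.64 to -2.61 when each library was left out. The common biological coefficient of variation was 1.26, with 3 pools per group. Members read in a single library did not pass the filter of the main analysis, and the part of depth in this was not tested.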
